A study of Mus musculus with 20 samples.

Results

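The R307W form of the transcription factor GATA2 was expressed from a retroviral vector in blood progenitor cells that lack the distal enhancer of Gata2, and RNA-seq of these cells was compared with that of enhancer-null cells carrying the same vector without an insert (the empty vector). The comparison uses 8 of the 20 libraries, chosen by their titles, with 4 of R307W and 4 of the empty vector. The other 12 libraries, 4 each, came from enhancer-null cells with wild-type GATA2, from enhancer-null cells with the T354M form, and from wild-type cells with the empty vector. All 20 entered 1 model, so that the groups share an estimate of the spread. Per the labels, the empty-vector and wild-type GATA2 cells were progenitors without mature lineage markers from fetal liver of C57BL/6J mice at E14.5, cultured for 3 days in medium conditioned with interleukin 3 and stem cell factor and infected with an MSCV retrovirus. For R307W and T354M the labels name the cell type, the genotype, the vector and the 3 days of culture, without tissue, age, strain or growth protocol. Any difference in how the cells were handled and an effect of the variant cannot be told apart. Every enhancer-null group lacks the element 77 kb upstream of Gata2, the controls included, and no label says whether replicates came from separate animals or cultures, so the p-values measure only the spread between these libraries.

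GATA2 is a zinc finger transcription factor that blood stem and progenitor cells need, and it also acts in mast cells, basophils and eosinophils. It binds DNA motifs of the GATA type mainly through its C-terminal finger, while the N-terminal finger, where R307W lies, stabilizes binding at some sites and contacts the cofactor FOG1. In progenitors the distal enhancer sustains Gata2 expression, and in erythroid maturation GATA1 replaces GATA2 at many sites. Myeloid progenitors with too little GATA2 activity are known to favour monocytic fates with a raised interferon programme.

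Library totals ran from 22785884 to 33245876 expected counts with R307W and from 22776714 to 28138755 with the empty vector, and the mitochondrial ribosomal RNA mt-Rnr2 took 17.9 to 24.6% of the counts of any of the 20 libraries. Levels are given as CPM, which are counts scaled to the library total, in the order of replicates 1 to 4. R307W replicate 4 stood apart from the other 3 libraries of its group: on the second principal component of all 20 libraries, which held 21.5% of the variance, it lay at -71.6 and the others at -20.6, -12.9 and -13.2. Wild-type GATA2 and T354M replicate 4 lay lowest of their groups on the same axis, and replicate 4 had the highest Gata2 level of each of these 3 groups, as given below for R307W. Results that change when R307W replicate 4 is left out are therefore given with and without it. The label of the cells as progenitors was compared with marker genes. Kit, the stem cell factor receptor, stood at 80.7 to 99.9 CPM with R307W and 73.4 to 79.5 CPM with the empty vector, and Cd34 at 123 to 255 and 369 to 430.5 CPM. Liver cell genes were also present: the summed level of 16 hepatocyte genes ran from 188.5 to 1476 CPM with R307W and from 850.6 to 2363 CPM with the empty vector, lowest in replicate 4 of both groups.

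The level of Gata2 itself was checked first. With the empty vector it was 5.53, 5.24, 4.72 and 7.67 CPM, and with R307W it was 49.99, 39.97, 39.5 and 89.5 CPM. All 4 R307W libraries lay above all 4 controls, with replicate 4 the highest of both groups. The difference was 9.43-fold (log2 difference 3.24, SE 0.36, adjusted p = 7.4e-06 in edgeR's quasi-likelihood test). The mean of 54.8 CPM was not called different from that with wild-type GATA2, 80.7 CPM (log2 difference -0.56, SE 0.32, adjusted p = 0.75). R307W was the lower of the 2 in all 4 pairs of same-numbered libraries, and with replicate numbers as a block the adjusted p was 0.061 over the 16 enhancer-null libraries and 0.028, a call, over the 8 libraries of the 2 groups. The difference from T354M, 52.02 CPM, was not called (log2 difference 0.07, SE 0.32, adjusted p = 0.99), and wild-type cells had 44.3 CPM. These counts do not separate transcripts of the vector from those of the gene. Mgll, a monoglyceride lipase gene on the same chromosome near Gata2, stood at 2.62, 2.43, 2.15 and 1.93 CPM with R307W and 2.18, 2.43, 2.45 and 2.59 CPM with the empty vector, in overlapping ranges, against a mean of 21.3 CPM in wild-type cells. None of the 10 tested genes of this neighbourhood was called by edgeR or DESeq2, 2 had an unadjusted p under 0.05 in edgeR's test, 1 was called when replicate numbers entered as a block, and the median log2 difference was 0.07.

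Among 15835 genes tested, 2773 (17.5%) were called at an adjusted p under 0.05: 1589 (10.0%) were higher with R307W and 1184 (7.48%) lower. A difference of at least 2-fold was reached by 669 of the higher (4.22%) and 474 of the lower genes (2.99%). The median log2 difference over all tested genes was 0.02. For 13.9% of the genes all 4 R307W libraries lay above all 4 controls, and for 13.1% below. Eosinophil, mast cell and basophil genes were among the largest rises, and the falls were smaller per gene and spread over interferon response, monocyte, dendritic cell and matrix genes, as the plot of difference against level shows. The count depended on single libraries: without R307W replicate 4 it was 1276 (959 higher, 317 lower), without empty-vector replicate 4 it was 1764 (1222 higher, 542 lower), and without replicate 4 of every group 1509 (1008 higher, 501 lower). When replicate numbers entered the fit as a block over the 16 enhancer-null libraries, 5341 genes were called, 2427 higher and 2914 lower, among them 2742 of the 2773.

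**Figure D1:**
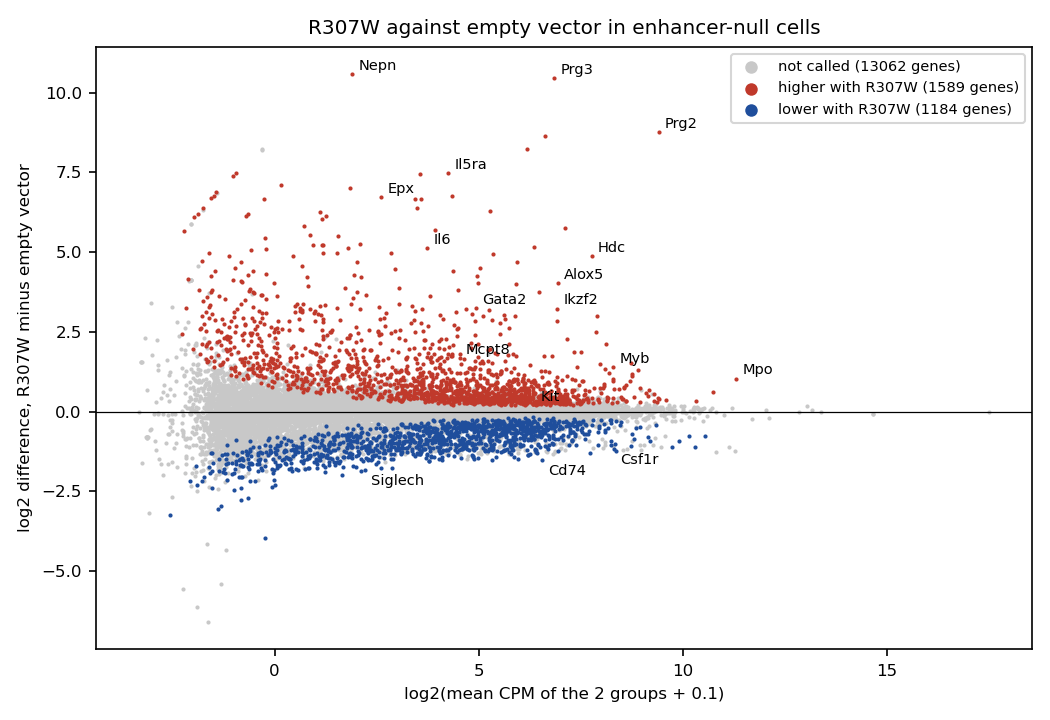
Log2 difference between R307W and empty vector (vertical axis) against log2 of the mean CPM of both groups plus 0.1 (horizontal axis), 1 point per tested gene, with called genes in red (1589 higher) and blue (1184 lower). The eosinophil genes Prg2, Prg3, Il5ra and Epx lie far above the other genes of their level, while lower genes such as Csf1r, Cd74 and Siglech lie between 1 and 2 log2 units below 0.

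Genes of the eosinophil granule and surface made up the group with the largest rise. All 10 tested genes of the list of 11 were called higher, against 10.0% of all tested genes (median log2 difference 7.10, against 0.02 over all tested genes). The other, Ear10, had no counts in these 8 libraries. Prg2, the major basic protein of eosinophil granules, stood at 2.48, 1.84, 5.64 and 2.52 CPM with the empty vector and at 1449, 1403, 788 and 1792 CPM with R307W. Every R307W library lay far above every control, with replicate 3 the lowest of the 4. The difference was 437-fold (log2 difference 8.77, SE 0.64, adjusted p = 4.4e-08). Its homolog Prg3 was measured at 0.188, 0.126, 0.306 and 0.0355 CPM with the empty vector and 241, 221, 170.5 and 288 CPM with R307W, again without overlap (1413-fold, log2 difference 10.46, SE 0.61, adjusted p = 3.4e-09). Il5ra, the receptor chain for interleukin 5, the growth factor of eosinophils, stood at 0.226, 0.0419, 0.218 and 0.3197 CPM with the empty vector and at 42.1, 30.2, 28.4 and 50.4 CPM with R307W, a rise of 179-fold (log2 difference 7.49, SE 0.44, adjusted p = 3.4e-09). The eosinophil-associated ribonucleases Ear1 and Ear6 stood at 69.6 to 333 and 72.7 to 209.8 CPM with R307W against 0.3197 to 0.874 and 0.168 to 1.31 CPM with the empty vector. Ear2, named after its values were seen, stood at 107 to 451 CPM against 4.16 to 5.99. These paralogs are near-identical, so the division of reads among them is uncertain. Alox15, the lipoxygenase of eosinophils, rose 77.7-fold (empty vector 0.564 to 1.53 CPM, R307W 36.1 to 132 CPM, log2 difference 6.28, SE 0.73, adjusted p = 1.1e-05).

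Epx, the eosinophil peroxidase, stood at 0.0376, 0.0419, 0.306 and 0.0711 CPM with the empty vector and at 11.1, 14.6, 5.696 and 16.2 CPM with R307W, without overlap (105-fold, log2 difference 6.72, SE 0.79, adjusted p = 1.3e-05). With wild-type GATA2 it reached 265, 327, 193 and 362 CPM. Every one of these libraries lay above every R307W library, a difference of 23.99-fold (log2 difference -4.58, SE 0.50, adjusted p = 8.8e-05). With T354M the mean was 536 CPM (log2 difference -5.49, SE 0.52, adjusted p = 5.4e-06 for R307W minus T354M), and in wild-type cells 69.5 CPM. Prg2 with R307W was 1.51-fold lower than with wild-type GATA2, not beyond the spread (log2 difference -0.59, SE 0.45, adjusted p = 0.93), and Prg3 and Il5ra were 1.45-fold and 1.39-fold higher, also not called (adjusted p = 0.84 and 0.77). With the replicate block over the 8 libraries of these groups Prg2 was called lower and Prg3 higher (adjusted p = 0.0024 and 0.0099), and over 16 libraries neither was (adjusted p = 0.52 and 0.44). Of the 10 tested eosinophil genes, Epx was the 1 called lower than with wild-type GATA2, where 1.14% of all tested genes were lower. The sialic acid receptor gene Siglecf, named after its values were seen, was the 1 called higher, at 71.95 to 122 against 42.3 to 56.4 CPM, where 0.587% of all tested genes were higher. The calls of the 10 genes against the empty vector held in 9 or 10 cases when any library was left out. Ccr3, the eotaxin receptor, stood at 3.28, 1.47, 0.206 and 5.43 CPM with R307W and 0.301, 0.251, 0.0874 and 0.497 CPM with the empty vector. It lost its call without R307W replicate 4 (adjusted p = 0.076) and in limma's test on log2(TPM + 1) (adjusted p = 0.13).

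**Figure D2:**
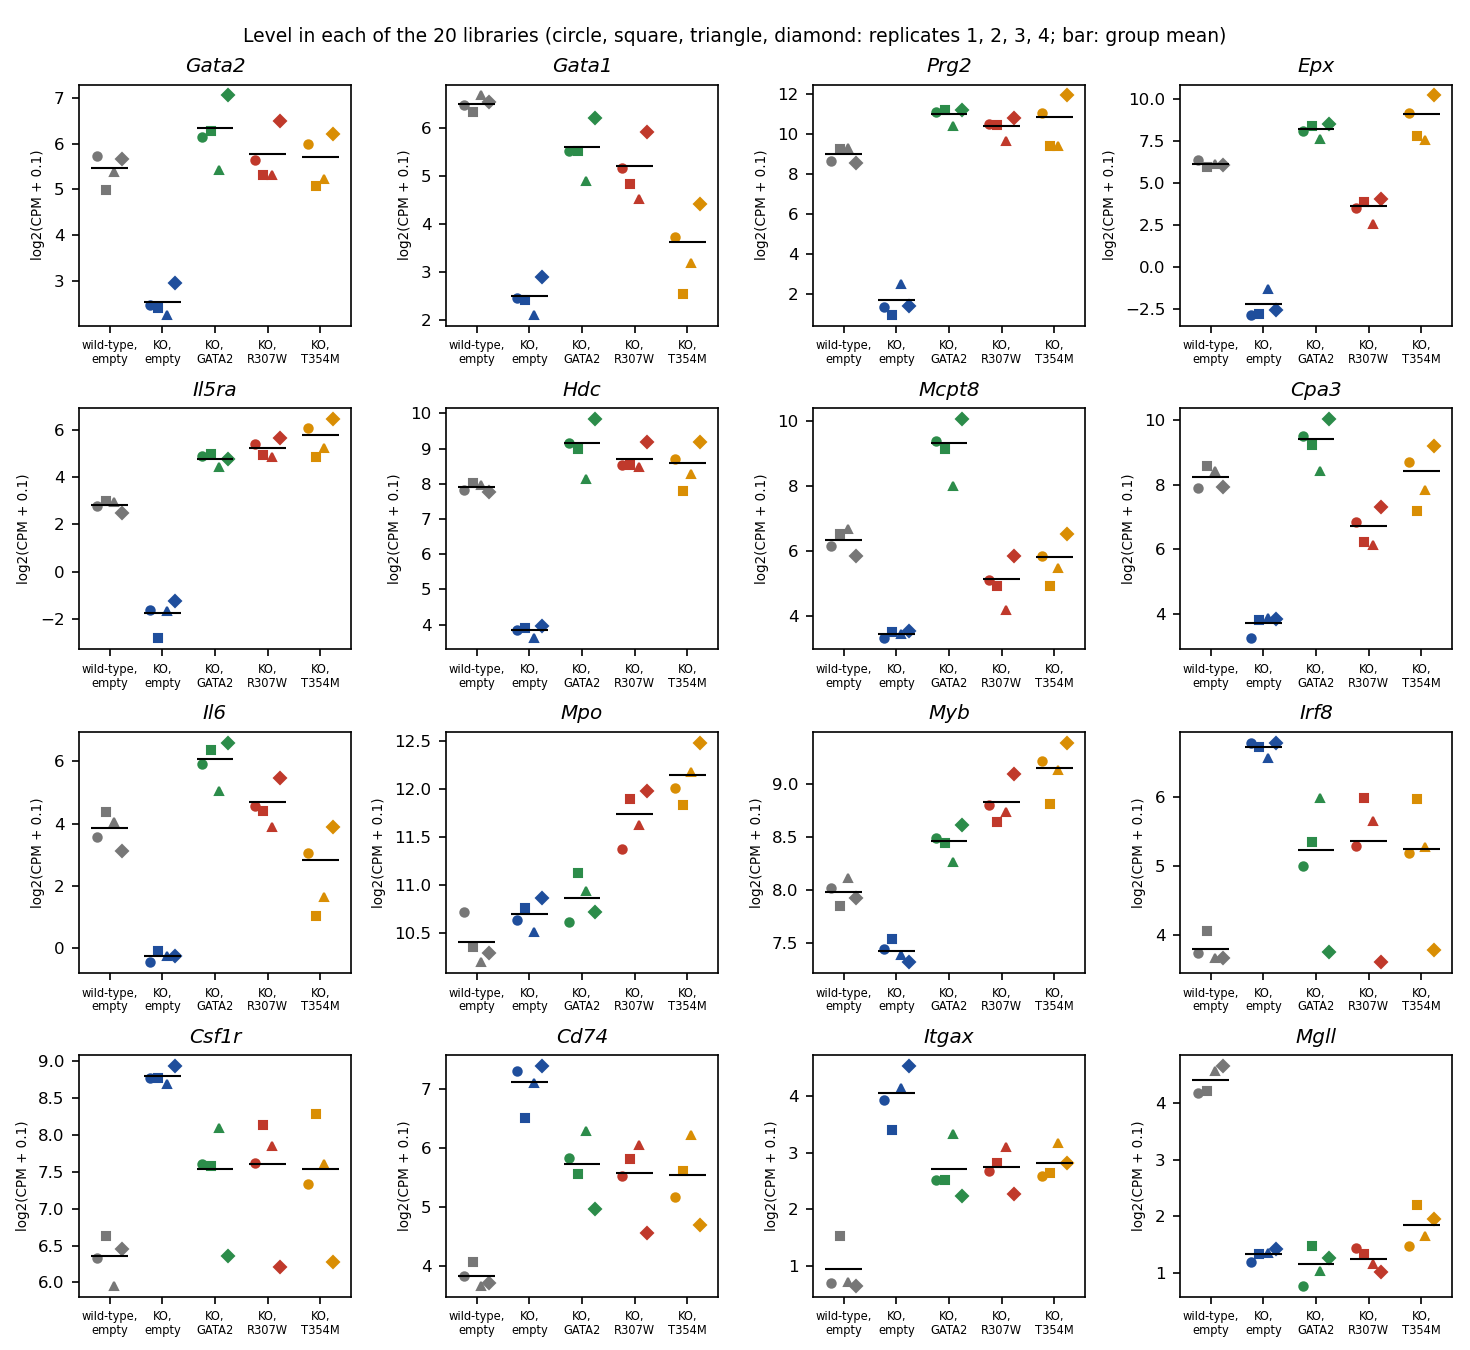
Level of 16 genes in each of the 20 libraries as log2(CPM + 0.1) on the vertical axis, by group on the horizontal axis, with marker shapes for replicates 1 to 4 and a bar at the group mean. Prg2, Il5ra and Hdc with R307W reach the levels seen with wild-type GATA2, Epx, Mcpt8 and Cpa3 with R307W lie between those of the empty vector and of wild-type GATA2, and Mgll stays at the empty-vector level.

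The 250 bases before the start of 3 genes that R307W raised and that were not lower than with wild-type GATA2 (Prg3, Il5ra and Ear2) and of 3 that it raised to a lower level than wild-type GATA2 did (Epx, Mcpt8 and Cpa3) are shown. They set these responses beside the sequence at the promoter. They are from RefSeq on GRCm38.p6, the build of the files (mm10), and are written 5′ to 3′ on the strand of the gene. Capitals mark GATA motifs on either strand, which were AGATAA or AGATAG with A first and TGATAA or TGATAG with T first.
Prg3: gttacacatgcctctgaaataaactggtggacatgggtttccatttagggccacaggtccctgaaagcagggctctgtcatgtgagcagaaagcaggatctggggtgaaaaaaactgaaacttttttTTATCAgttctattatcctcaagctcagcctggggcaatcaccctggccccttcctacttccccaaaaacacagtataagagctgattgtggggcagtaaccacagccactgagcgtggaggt
Il5ra: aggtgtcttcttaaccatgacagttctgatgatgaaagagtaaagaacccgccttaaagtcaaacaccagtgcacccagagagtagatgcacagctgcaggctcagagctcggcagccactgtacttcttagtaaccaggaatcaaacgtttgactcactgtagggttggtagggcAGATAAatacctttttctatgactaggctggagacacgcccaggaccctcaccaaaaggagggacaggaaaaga
Ear2: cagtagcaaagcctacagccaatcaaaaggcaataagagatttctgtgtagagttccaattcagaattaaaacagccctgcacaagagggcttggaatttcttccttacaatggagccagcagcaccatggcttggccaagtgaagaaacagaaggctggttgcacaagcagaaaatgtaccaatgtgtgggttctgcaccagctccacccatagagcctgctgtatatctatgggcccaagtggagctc
Epx: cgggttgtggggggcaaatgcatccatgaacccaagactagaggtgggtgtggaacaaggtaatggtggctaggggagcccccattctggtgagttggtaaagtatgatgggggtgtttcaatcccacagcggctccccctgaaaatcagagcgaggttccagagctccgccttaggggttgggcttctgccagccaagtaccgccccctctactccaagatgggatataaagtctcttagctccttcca
Mcpt8: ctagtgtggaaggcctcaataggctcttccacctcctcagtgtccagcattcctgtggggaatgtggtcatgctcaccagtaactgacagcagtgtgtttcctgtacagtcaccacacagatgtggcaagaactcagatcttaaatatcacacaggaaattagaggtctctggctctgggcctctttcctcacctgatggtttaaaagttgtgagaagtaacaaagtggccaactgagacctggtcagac
Cpa3: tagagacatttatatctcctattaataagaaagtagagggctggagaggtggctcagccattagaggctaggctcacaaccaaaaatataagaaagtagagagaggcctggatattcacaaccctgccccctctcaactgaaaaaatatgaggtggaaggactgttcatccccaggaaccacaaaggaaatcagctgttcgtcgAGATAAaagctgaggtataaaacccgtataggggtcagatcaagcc
Their positions are chr2:84987965-84988214, plus strand (Prg3), chr6:106749038-106749287, minus strand (Il5ra), chr14:44102404-44102653, plus strand (Ear2), chr11:87875537-87875786, minus strand (Epx), chr14:56085198-56085447, minus strand (Mcpt8) and chr3:20242182-20242431, minus strand (Cpa3), each upstream of an annotated transcript start. Prg3, Il5ra and Cpa3 hold 1 motif each, at 123, 74 and 46 bases before the start, and Ear2, Epx and Mcpt8 hold none in this window. So the motif was present in both sets and absent in both sets. A motif was found in 26.54% of all 32851 promoter windows of the table, and in 18.23% of those of tested genes. It was found in 29.71% of those of genes called at least 2-fold higher with R307W and in 22.64% of those called at least 2-fold lower. Among genes called lower than with wild-type GATA2 the share was 26.88%, and among those called higher 17.44%. Of the 124 genes named by rule 100 had a promoter in the table. A match is a description of the letters, not a binding site.

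Mast cell and basophil genes rose in part. Of 23 tested genes of the list of 24, 13 were called higher and 2 lower with R307W, against 10.0% and 7.48% of all tested genes, with a median log2 difference of 2.09. The median was 3.31 with the 3 genes that had no counts in a group set at their bound, and 3.52 to 3.68 in the fits of 8 or 16 enhancer-null libraries, where 16 or 18 genes of the list passed the filter on low counts. Hdc, the histidine decarboxylase that makes histamine, stood at 14.3, 14.9, 12.1 and 15.4 CPM with the empty vector and 371, 373, 357 and 580.1 CPM with R307W. The groups did not overlap, and R307W replicate 4 lay above the other 3, which were close together (29.6-fold, log2 difference 4.89, SE 0.34, adjusted p = 2.4e-08). Il1rl1, the interleukin 33 receptor, rose 26.1-fold (empty vector 3.38 to 5.75 CPM, R307W 69.02 to 208 CPM, log2 difference 4.70, SE 0.60, adjusted p = 2.8e-05). Il4, a cytokine of basophils, rose as well (empty vector 0 to 0.0874 CPM, R307W 1.94 to 7.28 CPM). The IgE receptor chain Fcer1a had 232 counts over the 4 R307W libraries and 1 over the controls, a ratio of 219.4 with a 95% counting interval of 38.98 to 8701 that covers counting error only. Cpa3, the carboxypeptidase of mast cell granules, stood at 9.36, 13.99, 14.4 and 14.2 CPM with the empty vector and 115, 75.2, 70.5 and 158 CPM with R307W (8.04-fold, log2 difference 3.01, SE 0.41, adjusted p = 5.9e-05). Mcpt8, a basophil protease, stood at 9.89, 11.3, 10.9 and 11.7 CPM with the empty vector and 34.5, 30.4, 18.4 and 57.8 CPM with R307W (3.23-fold, log2 difference 1.69, SE 0.39, adjusted p = 0.0069). For both genes no R307W library overlapped a control, and replicate 3 was the lowest R307W library. The prostaglandin D synthase Hpgds and the transcription factor Mitf were the 2 called lower, 2.14-fold and 1.67-fold. Without R307W replicate 4 their adjusted p were 0.11 and 0.087, without empty-vector replicate 4 0.076 and 0.057. Hpgds also lost its call without R307W replicate 1 or empty-vector replicate 1 or 3.

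Against wild-type GATA2, 10 of these 23 genes were lower with R307W and none higher, where 1.14% of all tested genes were lower. Of the 23, 16 passed the filter on low counts in the 8 libraries of R307W and the empty vector. The rest entered through other groups, where they were higher. The count of 10 may be partly set by that filter and is given as a description. Mcpt8 reached 679, 571, 255 and 1072 CPM with wild-type GATA2, 18.2-fold above R307W (log2 difference -4.19, SE 0.42, adjusted p = 5.8e-05). Cpa3 reached 719, 594, 343 and 1039 CPM, 6.44-fold above it (log2 difference -2.69, SE 0.39, adjusted p = 8.2e-04). The lowest library with wild-type GATA2, replicate 3, lay above the highest R307W library for both genes. A set of further genes stayed near 0 with R307W. Tph1, the first enzyme of serotonin synthesis in mast cells, stood at 0, 0.0771, 0.0413 and 0.121 CPM with R307W and at 7.45, 4.57, 0.825 and 23.3 CPM with wild-type GATA2. Replicate 3 was the lowest of its 4 libraries and replicate 4 the highest. Tpsb2, a mast cell tryptase, had 1 count in all R307W libraries and 1296 with wild-type GATA2, a ratio of 1264 with a 95% counting interval of 226.5 to 49970. The tryptase Tpsg1 stood at 0.0416, 0, 0 and 0.121 against 4.37, 3.04, 0.412 and 17.6 CPM. Dnase2b and Gnai1, a nuclease gene and a gene of an inhibitory G protein, were low in the same way, with Gnai1 at 0.0416, 0.231, 0.206 and 0.211 CPM against 5.59, 2.59, 0.5997 and 13.4 CPM. These 5 genes passed the filter on low counts through groups other than R307W and the empty vector. Their levels and counts are therefore given with no test. Tph1 had 7 counts in all with R307W and 8 with the empty vector, Tpsg1 had 5 and 1, Dnase2b 2 and 7, Gnai1 19 and 30, and Tpsb2 1 and 0. For all 5 genes the wild-type GATA2 libraries spread widely in the same order as for Tph1 at the lowest and highest. Hdc did not differ from wild-type GATA2 beyond the spread (log2 difference -0.43, SE 0.28, adjusted p = 0.85). In bulk samples fewer cells of a type and less RNA per cell cannot be told apart.

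**Figure D3:**
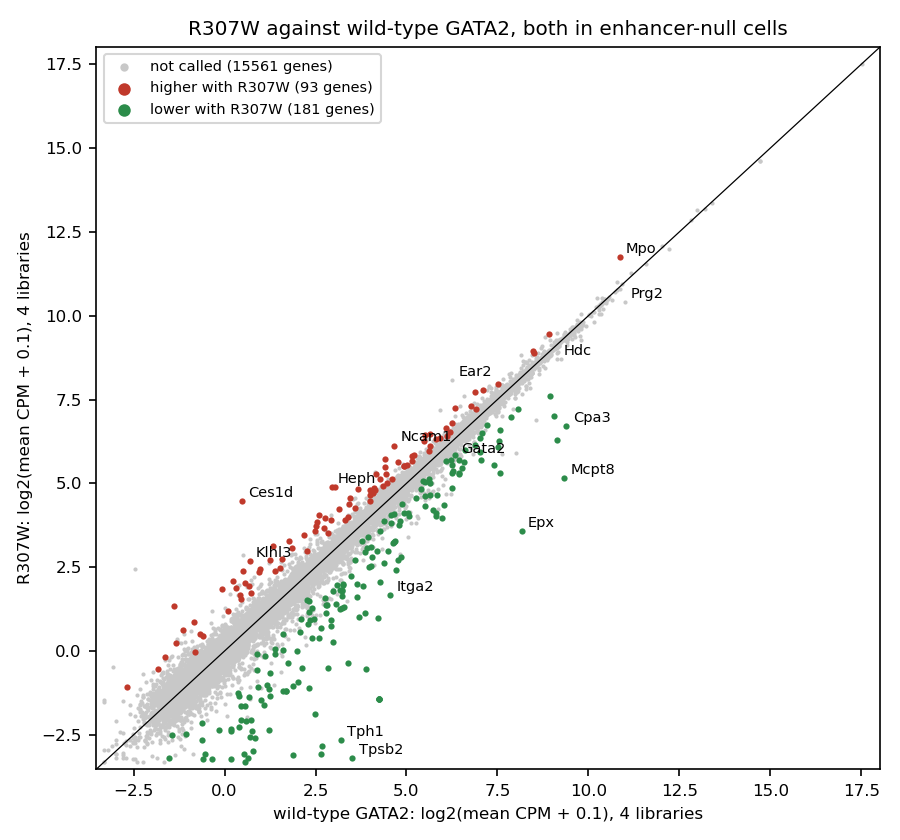
Mean level of each tested gene with R307W (vertical axis) against wild-type GATA2 (horizontal axis), both as log2(CPM + 0.1), with called genes in red (93 higher with R307W) and green (181 lower). Epx, Mcpt8 and Cpa3 lie below the diagonal, Tph1 and Tpsb2 lie near the bottom, and Ces1d, Klhl3 and Heph lie above the diagonal.

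Transcription factors of blood lineages moved in both directions: of 41 tested, 12 were higher and 7 lower, with a median log2 difference of 0.17. Of all tested genes 10.0% were higher and 7.48% lower. Gata1, the erythroid and mast cell GATA factor, stood at 5.38, 5.19, 4.19 and 7.32 CPM with the empty vector and 35.6, 28.2, 22.9 and 59.9 CPM with R307W. The groups did not overlap (6.63-fold, log2 difference 2.73, SE 0.37, adjusted p = 5.4e-05). The R307W level was not called different from that with wild-type GATA2 (48.6 CPM, adjusted p = 0.97; 0.19 with the replicate block over 16 libraries and 0.014, lower with R307W, over the 8). It was above that with T354M (12.2 CPM, adjusted p = 0.012; 0.068 without R307W replicate 4 and 0.12 with the 8 libraries of these groups alone). The erythroid factor Klf1 rose 5.47-fold (empty vector 1.44 to 2.82 CPM, R307W 7.06 to 21.9 CPM, log2 difference 2.45, SE 0.41, adjusted p = 5.0e-04). Gfi1b, a repressor of the erythroid and platelet lineages, rose 3.23-fold (adjusted p = 0.0051). Zfpm1, which encodes FOG1, rose 3.28-fold (adjusted p = 0.015, and 0.07 without R307W replicate 4). Myb, a factor of proliferating progenitors, stood at 173, 186, 167 and 159 CPM with the empty vector and 446, 398, 426 and 545 CPM with R307W. Here the replicates of each group lay close together and the groups far apart (2.65-fold, log2 difference 1.41, SE 0.12, adjusted p = 2.3e-07). Cebpa and Cebpe, factors of the granulocyte lineage, rose 1.93-fold and 4.37-fold. Gfi1, a repressor in neutrophil precursors, rose 1.95-fold (empty vector 10.1 to 13.4 CPM, R307W 19.3 to 25.3 CPM). Tal1 was 1.43-fold higher in overlapping groups, and leaving out any library other than R307W replicate 2 ended its call (adjusted p up to 0.16).

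Irf8, a factor that directs progenitors to the monocyte and dendritic cell lineages, stood at 111, 107, 95.5 and 111 CPM with the empty vector and at 39.3, 63.6, 50.4 and 12.1 CPM with R307W. All R307W libraries lay below all controls, and replicate 4 lay far below the other 3. The difference was 2.57-fold (log2 difference -1.36, SE 0.45, adjusted p = 0.045); its call ended when any single library except R307W replicate 2 was left out (adjusted p up to 0.13), and with the replicate block its adjusted p was 0.0031. Irf4 fell 2.896-fold (log2 difference -1.53, SE 0.38, adjusted p = 0.01). Spi1, the factor PU.1, was 1.41-fold lower and not called (adjusted p = 0.073; 0.015 with the replicate block). Without R307W replicate 4, 1 gene of this list was called lower, and without empty-vector replicate 4 there were 3. Without R307W replicate 1, R307W replicate 3 or empty-vector replicate 2 there were 4, without R307W replicate 2 there were 13, with the block 15, with DESeq2's Wald test 12 and with limma 4. Without replicate 4 of every group there were 4, and 11 when the block was added to that fit, an alternative chosen after seeing the data.

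Interferon response genes were lower as a group. Of 40 tested, 21 were called lower and none higher, against 7.48% of all tested genes, with a median log2 difference of -1.05; in 35 of the 40 all R307W libraries lay below all controls, against 13.1% of all tested genes. The summed level of the 40 genes was 2839, 2337, 2052 and 2180 CPM with the empty vector and 1452, 1533, 1310 and 641.6 CPM with R307W. The 2 groups did not overlap, and R307W replicate 4 had the lowest sum of these 8 libraries. Stat2, which carries the signal of interferon receptors to the nucleus, stood at 39.6, 30.8, 28.8 and 36.7 CPM with the empty vector and 25.1, 20.8, 18.2 and 14.7 CPM with R307W (1.73-fold lower, log2 difference -0.79, SE 0.19, adjusted p = 0.0095). The receptor chain Ifnar1 fell 1.66-fold (log2 difference -0.73, SE 0.16, adjusted p = 0.0044), and Tmem173, which encodes the cytosolic DNA sensing adaptor STING, 1.63-fold (log2 difference -0.70, SE 0.13, adjusted p = 0.0011). Ifi44 stood at 11.6, 5.403, 5.02 and 6.43 CPM with the empty vector and 4.07, 2.47, 2.68 and 0.755 CPM with R307W, 2.87-fold lower, and lost its call without any 1 library except R307W replicate 1 (adjusted p up to 0.16). The number of lower calls moved with single libraries: 3 without R307W replicate 4, 10 without replicate 3, 11 without replicate 1, and 5, 10, 12 and 7 without empty-vector replicates 1 to 4. It was 7 with limma on log2(TPM + 1) and 39 with the replicate block. Without replicate 4 of every group it was 23, and 37 when the block was added to that fit. The median log2 difference was negative in each of these settings. Against wild-type GATA2 the median was 0.17, and none of the 40 was called in edgeR's test or had an unadjusted p under 0.05; against T354M the median was 0.27, none was called, and 3 had an unadjusted p under 0.05.

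Genes of monocytes and macrophages showed the same direction. Of 25 tested genes of the list of 28, 14 were lower and 1 higher, against 7.48% and 10.0% of all tested genes, with a median of -1.04. Csf1r, the receptor for the macrophage growth factor, stood at 435, 439, 411 and 487 CPM with the empty vector and 196, 281, 229.5 and 73.9 CPM with R307W. No library overlapped, and R307W replicate 4 was again far below the others (2.27-fold, log2 difference -1.18, SE 0.39, adjusted p = 0.042). This call ended when any library except R307W replicate 2 was left out (adjusted p up to 0.13; 0.0035 with the block). Cx3cr1, a chemokine receptor of monocytes, fell 2.24-fold (log2 difference -1.16, SE 0.25, adjusted p = 0.0044) and the integrin Itgam 1.53-fold (log2 difference -0.61, SE 0.16, adjusted p = 0.011; adjusted p = 0.054 without R307W replicate 4). Vcam1, an adhesion molecule, was the 1 higher gene, at 13.01, 9.91, 6.07 and 9.54 CPM against 2.78, 1.76, 1.704 and 2.35 (4.46-fold, log2 difference 2.16, SE 0.32, adjusted p = 1.6e-04). Lower calls of the list numbered 1 without R307W replicate 4, 5 without R307W replicate 1, 6, 8 and 4 without empty-vector replicates 1, 3 and 4, 9 with limma, and 22 with the block. Without replicate 4 of every group they numbered 6, and 18 when the block was added to that fit.

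Dendritic cell and MHC class II genes had the lowest median of the lists, -1.40, with 14 of 21 tested genes lower and none higher. Of all tested genes 7.48% were lower and 10.0% higher, and these shares also stand beside the other list counts of this paragraph. Cd74, the invariant chain of class II molecules, stood at 158, 90.3, 137 and 166 CPM with the empty vector and 46.04, 56.1, 65.8 and 23.4 CPM with R307W (2.89-fold, log2 difference -1.53, SE 0.33, adjusted p = 0.004). H2-Eb1, a class II chain, fell 2.897-fold (log2 difference -1.53, SE 0.32, adjusted p = 0.0032), and the integrin Itgax, which encodes CD11c, 2.505-fold (log2 difference -1.32, SE 0.27, adjusted p = 0.0027). In each of these 3 genes the groups were separate, with R307W replicate 4 the lowest. Siglech, a receptor of plasmacytoid dendritic cells, stood at 7.79, 6.995, 5.81 and 7.53 CPM with the empty vector and 1.58, 3.16, 2.81 and 0.423 CPM with R307W, 3.55-fold lower; leaving out R307W replicate 1 or 4 or any empty-vector library ended its call (adjusted p up to 0.12). The count of 14 became 8 without R307W replicate 4. Lysosomal genes fell in 11 of 20 cases (median -0.52), among them the proteases Ctsd (1.701-fold, log2 difference -0.77, SE 0.16, adjusted p = 0.0028) and Ctsa (1.57-fold), a count that was 7 without R307W replicate 4. Lymphoid genes were lower in 6 of 11 tested of 17 listed (median -1.06), with the B cell factor Ebf1 at 2.86, 2.304, 1.97 and 2.74 CPM with the empty vector and 0.997, 0.617, 0.908 and 0.332 CPM with R307W (log2 difference -1.80, SE 0.38, adjusted p = 0.0031). That count was 1 without R307W replicate 4 and 2, 3 and 2 without empty-vector replicates 1, 3 and 4. Innate immune receptor and adaptor genes were lower in 10 and higher in 2 of 26 tested (median -0.92), the higher share near the 10.0% of all tested genes. The higher 2 were Fc receptor genes, Fcgr3 at 331 to 512 against 170.1 to 185 CPM (log2 difference 1.22, SE 0.17, adjusted p = 6.6e-05) and Fcgr2b at 41.3 to 55.8 against 20.6 to 32.8 CPM. The lower 10 became 22 with the block, 18 with DESeq2's Wald test, 16 with the 8 libraries alone, 1 without R307W replicate 4, 3 without R307W replicate 1, and 5, 6, 3 and 2 without empty-vector replicates 1 to 4. Without replicate 4 of every group they became 6, and 21 when the block was added to that fit.

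**Figure D4:**
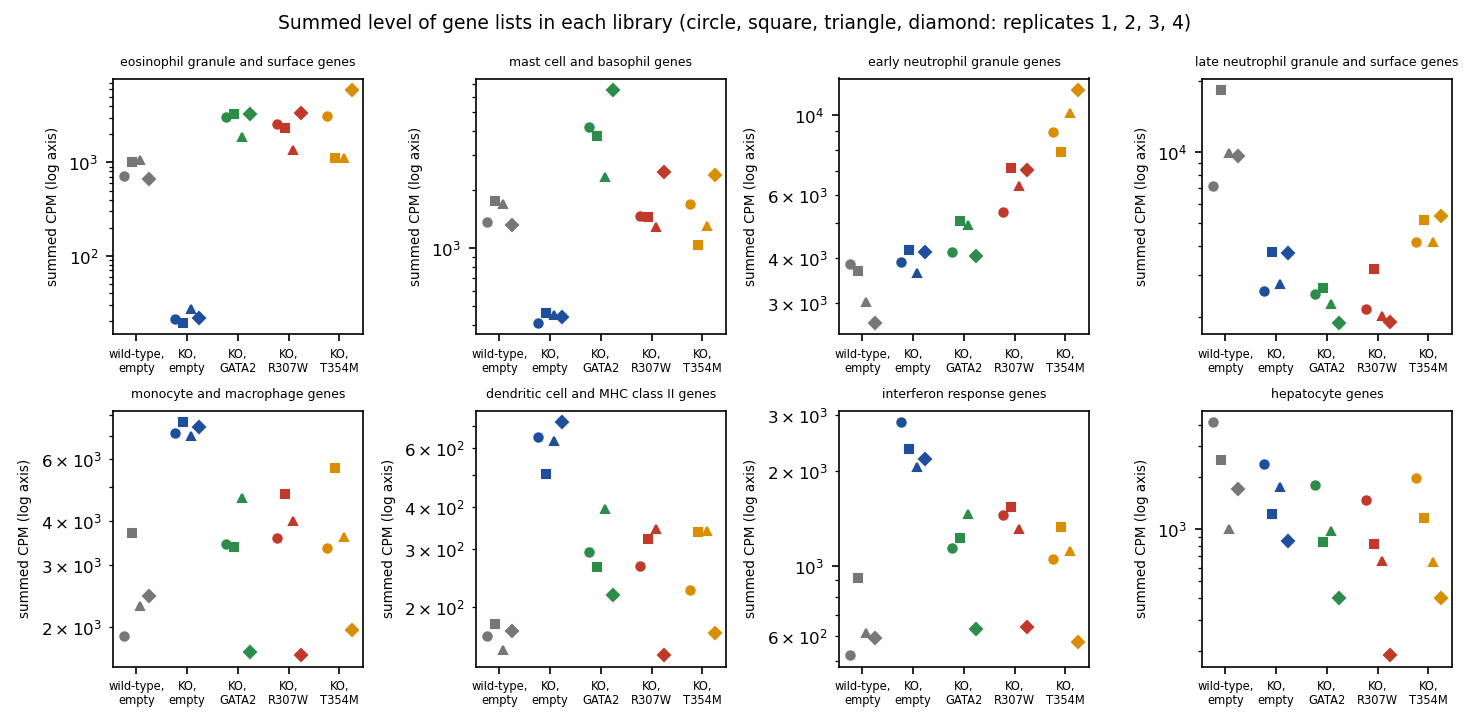
Summed CPM of 8 gene lists in each of the 20 libraries on a log axis, by group, with marker shapes for replicates 1 to 4. With R307W the eosinophil sum lies at 1350 to 3400 CPM against 19.3 to 27.2 CPM with the empty vector, the monocyte, dendritic cell and interferon sums lie below the controls with replicate 4 lowest, and the hepatocyte sums of the groups overlap.

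Neutrophil granule genes are given by stage. Of 11 early (azurophil) granule genes, 5 were higher and 1 lower (median 0.24), against 10.0% and 7.48% of all tested genes. The lower share is near that of all tested genes. Mpo, the myeloperoxidase, stood at 1591, 1739, 1464 and 1862 CPM with the empty vector and 2660, 3810, 3155 and 4026 CPM with R307W, with no overlap (2.05-fold, log2 difference 1.04, SE 0.16, adjusted p = 2.4e-04). Prss57, a serine protease of the same granules, rose 2.89-fold (log2 difference 1.53, SE 0.18, adjusted p = 1.3e-05), and Cst7, a protease inhibitor, 2.43-fold. Elane, the neutrophil elastase, stood at 59.8, 48.5, 38.8 and 51.8 CPM with the empty vector and 46.3, 73.5, 37.7 and 41.01 CPM with R307W in overlapping ranges (adjusted p = 0.99). Clec5a, a lectin receptor, was 2.24-fold lower, and leaving out any library except R307W replicate 2 ended that call (adjusted p up to 0.13). Of 20 late granule and surface genes, 9 were lower, against 7.48% of all tested genes, and 1 higher, with a median of -1.08. All R307W libraries lay below all controls in 3 of the 20, a share near the 13.1% of all tested genes. Lcn2, the lipocalin of late granules, stood at 35.6, 48.6, 36.4 and 72.6 CPM with the empty vector and 19.8, 40.9, 17.8 and 15.3 CPM with R307W. R307W replicate 2 lay above empty-vector replicates 1 and 3, so the groups overlapped (2.06-fold lower, log2 difference -1.04, SE 0.30, adjusted p = 0.023; adjusted p up to 0.099 when a library was left out). Anxa1 was the higher gene, 2.499-fold (log2 difference 1.32, SE 0.21, adjusted p = 2.5e-04). No late gene was called lower without R307W replicate 4, 1 without R307W replicate 1 or 3 or empty-vector replicate 2 or 4, 5 with the 8 libraries alone, and 15 with the block. Without R307W replicate 2 there were 13. Without replicate 4 of every group there were 2, and 14 when the block was added to that fit.

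Red cell genes rose in 15 and fell in 3 of 37 tested, against 10.0% and 7.48% of all tested genes, with a median of 0.42. The lower share is near that of all tested genes. The blood group protease Kel stood at 3.01, 3.27, 2.19 and 3.41 CPM with the empty vector and at 42.3, 18.96, 14.6 and 91.2 CPM with R307W (14.1-fold, log2 difference 3.81, SE 0.50, adjusted p = 4.4e-05). Every R307W library was above every control, and replicate 4 was more than 2 times the next. Car1, a carbonic anhydrase, rose 38.6-fold (empty vector 0.131 to 0.293 CPM, R307W 4.499 to 13.9 CPM, log2 difference 5.27, SE 0.52, adjusted p = 1.6e-06). Slc4a1, the anion exchanger of mature red cells, and Trim10, both late erythroid genes, were lower, 2.98-fold and 3.54-fold. Slc4a1 stood at 1.33, 5.97, 2.89 and 1.24 CPM with R307W and 6.39, 9.21, 5.505 and 12.6 CPM with the empty vector, and lost its call without R307W replicate 1 or 4 or empty-vector replicate 4 (adjusted p up to 0.082). The third lower gene was the haem synthesis enzyme Alas2, at 0.914 to 2.12 against 2.32 to 9.41 CPM, named after its values were seen. None of the 6 globin genes tested was called in edgeR's test; the lowest adjusted p was 0.069, for Hba-a2. The higher count was 9 without R307W replicate 4 or empty-vector replicate 1, and the lower count 1 without R307W replicate 1 or 4 or empty-vector replicate 4 and 8 with the block. Megakaryocyte and platelet genes were lower in 9 and higher in 1 of 23 (median -0.67), against 7.48% and 10.0% of all tested genes. The platelet collagen receptor Gp6 fell 3.702-fold (log2 difference -1.89, SE 0.41, adjusted p = 0.0043) and the multimerin Mmrn1 2.36-fold (log2 difference -1.24, SE 0.24, adjusted p = 0.002). The thrombin receptor F2r rose 2.47-fold (adjusted p = 0.0021). The 9 became 3 without replicate 4 of either group and 5 with limma.

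Secreted cytokine genes were higher in 9 and lower in 1 of 18 tested, against 10.0% and 7.48% of all tested genes. The lower share is near that of all tested genes. Il6 stood at 0.639, 0.838, 0.743 and 0.746 CPM with the empty vector and 23.6, 21.2, 14.8 and 43.5 CPM with R307W, without overlap (34.7-fold, log2 difference 5.12, SE 0.60, adjusted p = 1.3e-05). The lower gene was Tnf, at 9.14, 17.3, 13.7 and 7.73 against 22.3, 23.8, 21.1 and 19.5 CPM (1.81-fold; adjusted p = 0.024, 0.10 without R307W replicate 4). The 9 became 3 without that library and 5 with limma, and the lower count became 3 with DESeq2's Wald test and 6 with the block. Of 27 growth factor and cytokine receptor genes 7 were higher and 12 lower, against 10.0% and 7.48% of all tested genes. Beside Il5ra and Il1rl1, which rose, the interleukin 4 receptor Il4ra fell 2.12-fold (log2 difference -1.08, SE 0.22, adjusted p = 0.0027). The neutrophil growth factor receptor Csf3r fell 1.81-fold (adjusted p = 0.032, up to 0.11 when a library was left out). The 12 became 6 without R307W replicate 4 and 7 without empty-vector replicate 4. Of 27 chemokine and chemokine receptor genes 6 were lower, against 7.48% of all tested genes, and 3 higher, a share near the 10.0% of all tested genes. Cxcr4, the receptor that holds progenitors in their niche, rose 2.04-fold (log2 difference 1.03, SE 0.16, adjusted p = 2.7e-04), and Cxcr3 fell 3.62-fold (log2 difference -1.86, SE 0.38, adjusted p = 0.0029). The 6 became 13 with the block and 3 without replicate 4 of either group. Without replicate 4 of every group they became 3, and 11 when the block was added to that fit. Alox5, the first enzyme of leukotriene synthesis, stood at 11.02, 11.4, 13.2 and 20.4 CPM with the empty vector and 187, 177, 156 and 405 CPM with R307W (16.5-fold, log2 difference 4.04, SE 0.46, adjusted p = 7.7e-06). The platelet lipoxygenase Alox12 was 3.37-fold lower (log2 difference -1.75, SE 0.41, adjusted p = 0.0073). Of the 16 tested genes of leukotriene and prostaglandin synthesis and reception, 4 were higher and 4 lower, against 10.0% and 7.48% of all tested genes. The lower count was 1 without R307W replicate 4 and 2 without R307W replicate 1 or empty-vector replicate 4.

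Stem and progenitor genes divided, with 4 of 24 tested higher and 7 lower (median -0.10), against 10.0% and 7.48% of all tested genes. Ikzf2, the zinc finger factor Helios, stood at 25.4, 20.7, 24.9 and 22.2 CPM with the empty vector and 227, 154, 186 and 308 CPM with R307W (9.404-fold, log2 difference 3.23, SE 0.22, adjusted p = 2.3e-08). Cd34 was 1.91-fold lower and Lmo2 1.33-fold lower, and both calls ended without R307W replicate 4 (adjusted p = 0.057 and 0.066). Without that library no gene of the list was called lower, and 4, 2, 4 and 3 were without R307W replicate 1 and empty-vector replicates 1, 2 and 4, and 4 with limma. Kit differed by 1.16-fold and was not called (adjusted p = 0.28). Of 36 cell cycle genes 5 were higher and 2 lower (median 0.09), shares near the 10.0% and 7.48% of all tested genes. The G1 kinase Cdk6 rose 1.78-fold (log2 difference 0.83, SE 0.09, adjusted p = 6.1e-06), and the cyclin Ccnd1 fell 2.07-fold (log2 difference -1.05, SE 0.30, adjusted p = 0.02; adjusted p = 0.081 without R307W replicate 4). The higher count was 1 without replicate 4 of either group, 2 without empty-vector replicate 1, and 3 without R307W replicate 1 or empty-vector replicate 3, with DESeq2's size factors, without the filter or with limma. Cholesterol and fatty acid synthesis genes were higher in 8 of 20 and lower in none, 13 were called with the block, and 2 without replicate 4 of every group. The lanosterol synthase Lss rose 1.74-fold (log2 difference 0.80, SE 0.16, adjusted p = 0.0028) and the desaturase Scd2 1.96-fold (log2 difference 0.97, SE 0.19, adjusted p = 0.0019). Glycolysis and hypoxia response genes were higher in 4 of 20, among them the hexokinase Hk1 (1.93-fold, log2 difference 0.95, SE 0.18, adjusted p = 0.0013), a count that was 1 or 2 without R307W replicate 1, 2 or 4 or any empty-vector library, and 1 with limma. None of the 13 mitochondrially encoded genes was called by DESeq2 or by edgeR without the block, and 2 had an unadjusted p under 0.05 in edgeR's test. With the replicate block over the 16 enhancer-null libraries 2 were called higher. Among 25 integrin and adhesion genes 3 were higher, a share near the 10.0% of all tested genes, and 6 lower (median -0.02), of which count limma gave 1. Against 10.0% of all tested genes higher and 7.48% lower, Jun and Zfp36 were lower among 18 immediate early and heat shock genes (median -0.39). Among 12 feedback genes of growth factor signalling Spry2 was higher, a share near that of all tested genes, and Dusp6 and Dusp2 were lower (median -0.10). These 3 lists had lower counts of 1, 0 and 0 without R307W replicate 4, of 2, 0 and 1 without empty-vector replicate 4 and of 2, 0 and 0 without R307W replicate 1; without empty-vector replicate 3 they were 3, 2 and 0. With the block 8, 6 and 4 were lower and 5, 0 and 2 higher.

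Endothelial, stromal and matrix genes were lower in 10 and higher in 2 of 16 (median -1.29), against 7.48% and 10.0% of all tested genes. The higher share is near that of all tested genes. Acta2, smooth muscle actin, stood at 5.303, 6.58, 9.13 and 15.8 CPM with the empty vector and 2.08, 3.08, 3.01 and 2.66 CPM with R307W (3.401-fold, log2 difference -1.77, SE 0.37, adjusted p = 0.0031). The controls spread over a wider range than the R307W libraries, with replicate 4 the highest, and the groups did not overlap. The collagen gene Col1a2 fell 2.89-fold (log2 difference -1.53, SE 0.34, adjusted p = 0.0052). The growth factor receptor Pdgfrb rose 3.98-fold (log2 difference 1.99, SE 0.28, adjusted p = 9.8e-05) and the endothelial adhesion molecule Pecam1 1.85-fold (log2 difference 0.89, SE 0.17, adjusted p = 0.0013). Lower calls of the list numbered 3 without replicate 4 of either group, 4 and 5 without R307W replicates 1 and 3, and 6 without empty-vector replicate 3. None of the 16 hepatocyte genes was called by edgeR or DESeq2, none had an unadjusted p under 0.05, their median was -0.95, and the groups overlapped for each of them; with the replicate block 15 of 16 were lower. Alb, which encodes albumin, stood at 299, 131, 200.5 and 69.6 CPM with the empty vector and 189.7, 85.2, 64.97 and 18.5 CPM with R307W, highest in replicate 1 and lowest in replicate 4 of both groups. The part of these other cell types in the falls given above was not tested.

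**Figure D5:**
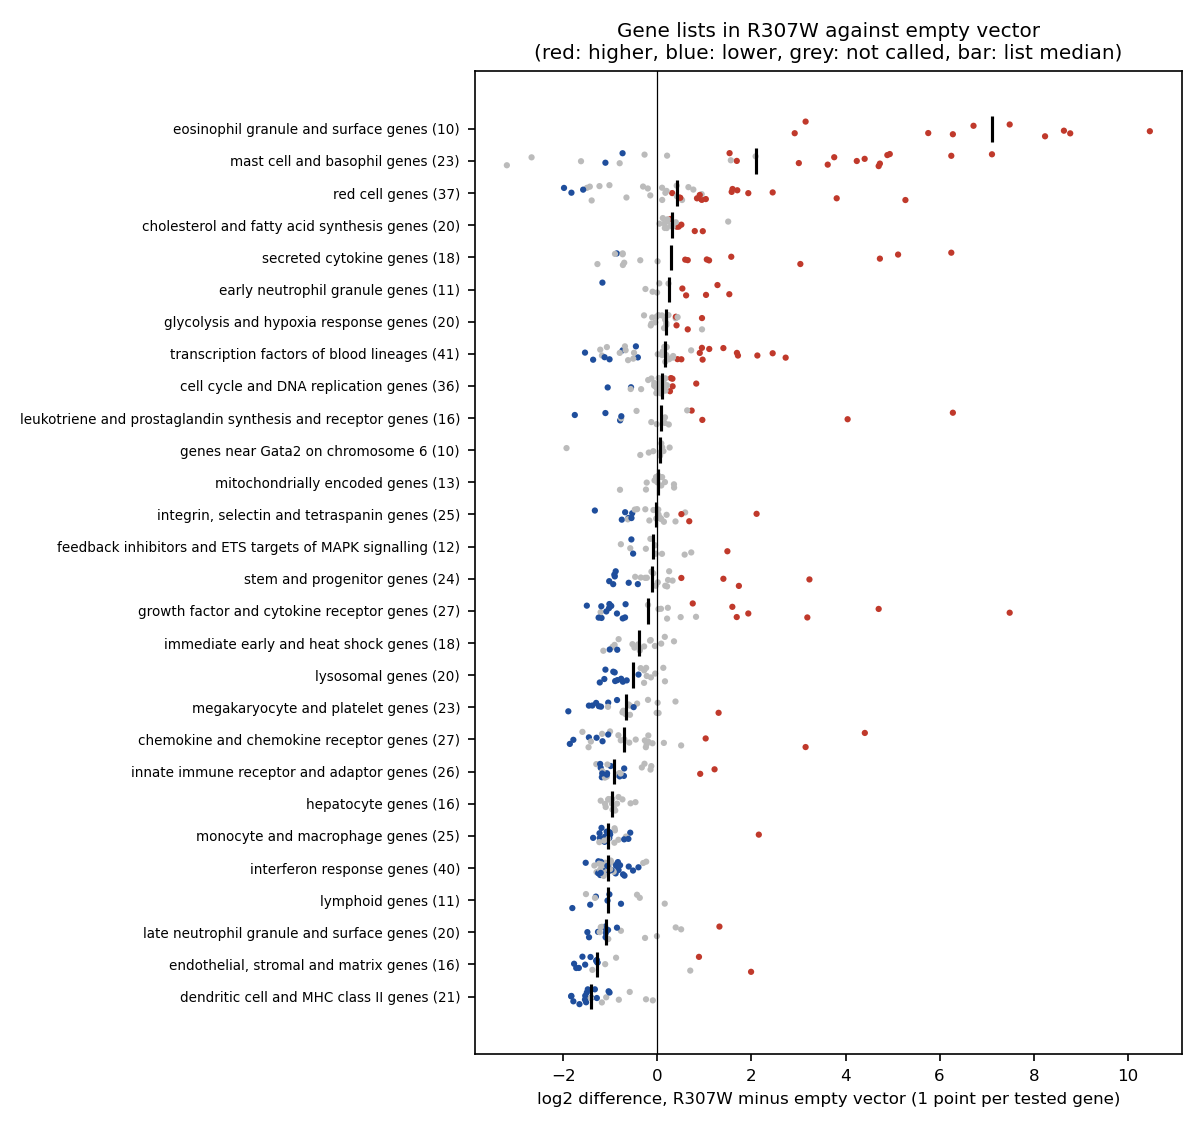
Log2 difference between R307W and empty vector (horizontal axis) for each tested gene of 28 lists, ordered by the list median (black bar), with called genes in red (higher) and blue (lower) and the number of tested genes in parentheses. The eosinophil list has the highest median, 7.10, and the dendritic cell and MHC class II list the lowest, -1.40; grey points are genes not called.

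Outside these lists, the largest rises by the naming rule included Nepn, which encodes the matrix proteoglycan nephrocan. It had no counts with the empty vector and stood at 5.402, 2.698, 1.49 and 19.4 CPM with R307W, at least 276.7-fold higher against a floor of 3 counts over the control group. Csrp3, a LIM domain gene known from muscle, stood at 0.0752, 0.126, 0 and 0.284 CPM with the empty vector and 22.9, 11.5, 10.4 and 47.7 CPM with R307W (176-fold, log2 difference 7.46, SE 0.72, adjusted p = 1.2e-06), with replicate 4 more than 2 times the next library. Chst13, a chondroitin sulfotransferase, reached 4.75 to 11.2 CPM with R307W against 0 to 0.0838 CPM. The sugar transporter relative Slc45a3 reached 15.5 to 38.4 CPM against 0.142 to 0.393 CPM. The ribonuclease relative Rnase12 averaged 21.4 CPM against 0.205 CPM, and Pdzph1 26.8 to 58.9 CPM against 0.262 to 0.461 CPM. In all 4 genes every R307W library lay above every control. The largest falls included the collagen Col5a2 (3.63-fold, log2 difference -1.86, SE 0.37, adjusted p = 0.0022) and the adhesion molecule Jaml (3.23-fold, log2 difference -1.69, SE 0.38, adjusted p = 0.0051). Tnc, the matrix protein tenascin C, fell 2.903-fold (log2 difference -1.54, SE 0.38, adjusted p = 0.01). The glycosyltransferase B3gnt5 fell 2.88-fold (log2 difference -1.53, SE 0.47, adjusted p = 0.032), and its adjusted p was up to 0.11 when a library was left out.

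Set against wild-type GATA2, the R307W libraries differed in 274 genes (1.73%), 93 higher (0.587%) and 181 lower (1.14%). Of the 1589 genes that R307W raised over the empty vector, 77 were higher than with wild-type GATA2, 28 lower, and 1484 were called in neither direction. Of the 1184 it lowered, 19 were lower than with wild-type GATA2 and 1165 were not called. The 2 comparisons share the R307W libraries, and a gene not called is not shown to be alike. Ces1d, a carboxylesterase gene, stood at 22.7, 18.5, 11.8 and 34.9 CPM with R307W, 0.301, 0.419, 0.131 and 0.178 CPM with the empty vector and 1.32, 1.41, 0.7496 and 1.71 CPM with wild-type GATA2. It was 16.9-fold higher than with wild-type GATA2 (log2 difference 4.07, SE 0.36, adjusted p = 1.6e-05) and 25.8-fold higher than with T354M (log2 difference 4.69, SE 0.38, adjusted p = 1.0e-06), without overlap in both. Heph, the membrane ferroxidase hephaestin, stood at 25.6, 20.9, 21.8 and 50.4 CPM with R307W and 6.48, 6.01, 5.58 and 12.3 CPM with wild-type GATA2 (3.902-fold, log2 difference 1.96, SE 0.33, adjusted p = 0.0032). Klhl3, an adaptor of a ubiquitin ligase, and Mgam, a maltase, were 4.21-fold and 3.66-fold higher (adjusted p = 1.1e-04 and 1.1e-04), Klhl3 at 4.97 to 7.58 against 1.20 to 1.902 CPM and Mgam at 26.2 to 31.8 against 5.93 to 12.02 CPM. Neither of these 2 genes was called different from T354M (log2 difference 0.26 and -0.25, adjusted p = 0.82 and 0.80 in edgeR's quasi-likelihood test). Mpo was 1.83-fold higher (log2 difference 0.87, SE 0.16, adjusted p = 0.006), Cdk6 1.39-fold (log2 difference 0.48, SE 0.09, adjusted p = 0.0069) and Elane 1.82-fold (adjusted p = 0.026, up to 0.14 when a library was left out). Il17rb, a chain of the interleukin 25 receptor, stood at 0.291, 0.2698, 0.206 and 0.695 CPM with R307W and 6.95, 4.26, 2.14 and 6.27 CPM with wild-type GATA2 (12.8-fold lower). It passed the filter on low counts through groups other than R307W and the empty vector, so no test of this difference is given. Il7r, the interleukin 7 receptor, was 4.996-fold lower (log2 difference -2.32, SE 0.29, adjusted p = 2.6e-04). With the 8 libraries of these groups alone, the calls of Mpo, Cdk6, Elane and Heph ended (adjusted p = 0.052, 0.057, 0.18 and 0.054), and without replicate 4 of every group those of the first 3 (adjusted p = 0.054, 0.071 and 0.14). The count of 274 was 126 without wild-type GATA2 replicate 4, 177 without its replicate 1, 162, 170 and 166 without R307W replicates 1 to 3, and 637 with the replicate block over the 16 libraries.

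Against T354M, 553 genes (3.49%) differed, 364 higher with R307W (2.30%) and 189 lower (1.19%). Of 37 red cell genes 16 were higher with R307W and none lower, with a median of 0.92. Kel stood at a mean of 41.8 CPM with R307W and 1.54 CPM with T354M (log2 difference 4.76, SE 0.54, adjusted p = 5.3e-05). Klf1 stood at 12.1 and 1.85 CPM (log2 difference 2.71, SE 0.42, adjusted p = 7.8e-04). Outside the list, the sodium pump subunit Atp1b2 stood at 13.9 and 0.523 CPM and Epdr1 at 15.0 and 0.823 CPM (log2 difference 4.17, SE 0.35, adjusted p = 1.2e-06). Each of these 4 genes was without overlap between the groups. Early neutrophil granule genes went the other way, with 6 of 11 lower and none higher (median -0.74). Ctsg, the cathepsin G, stood at 201, 284, 219 and 166 CPM with R307W and a mean of 843 CPM with T354M (log2 difference -1.95, SE 0.17, adjusted p = 2.9e-06). The repressor Gfi1 stood at means of 22.3 and 62.5 CPM (log2 difference -1.48, SE 0.11, adjusted p = 3.6e-07). Anxa1 and the late granule gene Ngp were 3.29-fold and 4.03-fold lower with R307W (adjusted p = 1.1e-04 and 0.0059; for Ngp 0.083 without replicate 4 of every group), and the chloride channel Cftr 8.502-fold lower (log2 difference -3.09, SE 0.31, adjusted p = 1.4e-05). The count of 553 was 282 without R307W replicate 4, 364 without R307W replicate 1 and 1319 with the replicate block.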

How the data were processed

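RNA of all 20 libraries was prepared with a total RNA kit, per the labels' protocols. The submitters' processing notes name STAR 2.5.2b, RSEM 1.3.0 and mm10. The deposited files give, for each of 53379 genes, the authors' RSEM expected counts, TPM and FPKM. Expected counts were rounded and fitted here with edgeR 4.0.16 (R 4.3.3): 15835 genes passed filterByExpr, TMM scaling and 5 group means over 20 libraries left 15 residual degrees of freedom, and the quasi-likelihood F-test was adjusted by the Benjamini-Hochberg method over all tested genes. Genes with an adjusted p under 0.05 were called. Standard errors were obtained as the absolute log2 difference over the root of F. TPM served in 1 alternative, limma 3.58.1 on log2(TPM + 1), and the deposited FPKM was not used. Symbols came from GENCODE for 53274 genes.

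The rule for named genes took a fixed set of regulators and lineage genes, the 12 highest and 12 lowest differences among called genes with a mean of at least 5 CPM and no overlap between groups (5 each against wild-type GATA2 and T354M), and 2 called genes with the lowest adjusted p per direction from each of 28 lists. A gene that this rule names is not reported here. The members and lists were chosen with earlier results of these data known. Counting intervals are exact at 95% and cover counting error only, and the floor for an empty group was 3 counts. The script was tested on simulated counts.

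Whether replicate numbers pair the enhancer-null groups was checked. The Y-linked gene Ddx3y stood at 7.19, 52.96, 52.96 and 0 CPM with R307W, 7.52, 52.4, 53.2 and 0 CPM with the empty vector and 7.63, 46.04, 52.5 and 0 CPM with wild-type GATA2. Deviations from the group means of same-numbered libraries correlated at 0.311, 0.019, 0.199 and 0.271 between R307W and empty vector, at 0.482, 0.219, 0.444 and 0.623 with wild-type GATA2 and at 0.478, 0.291, 0.204 and 0.667 with T354M. The numbers were taken to pair these groups from the Y-linked levels, which the labels do not state. All pairs of libraries within a group differed by more than sampling noise. Alternatives were DESeq2 1.42.0 (its size factors and its Wald test), no filter, limma, the 8 compared libraries alone, the replicate block, protein-coding genes alone, and leaving out libraries.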

Additional observations from a re-analysis of the deposited data

Results flagged for a closer look

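The highest or lowest of 4 libraries was far from the other 3 in 19 of 248 groups of values checked (124 genes in 2 groups each) by Dixon's test at the 95% level; chance gives about 1 in 20 groups. With R307W, replicate 4 was high for Gfi1b (42.2 CPM), Cebpa (109.4 CPM), Hdc (580.1 CPM), Heph (50.4 CPM) and Alox5 (404.9 CPM). Replicate 2 of R307W was high for Ngp (68.7 CPM), and it was the only R307W library with a count for Tpsb2 (0.0386 CPM) and Dnase2b (0.0771 CPM), while replicate 1 was low for Gnai1 (0.0416 CPM). With the empty vector, replicate 4 was high for Cebpa (56.2 CPM), Cebpe (7.67 CPM) and Spi1 (116.0 CPM), and replicate 3 for Epx (0.306 CPM), Ear6 (1.31 CPM) and Fcer1a (0.0437 CPM, a single count). Empty-vector replicate 2 stood apart for Tpsg1 (0.0419 CPM, a single count), Clec5a (141.2 CPM) and Fcnb (42.5 CPM), and replicate 1 was low for Cpa3 (9.36 CPM).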

How the results depend on the processing

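Against the empty vector, 2773 genes were called, and the count was 5341 with the replicate block over 16 libraries (3222 when replicate 4 of every group was also left out, an alternative chosen after seeing the data) and 1509 without replicate 4 of every group; leaving out 1 library gave 1276 to 2976. Against wild-type GATA2, 274 were called, and the count was 430 with the DESeq2 Wald test, 117 with the 8 libraries alone, 637 and 940 with the replicate block over 16 and 8 libraries, 162 without replicate 4 of every group, and 126 to 376 with 1 library left out. Against T354M, 553 were called, and the count was 360 with limma on log2(TPM + 1), 250 with the 8 libraries alone, 1319 and 1089 with the replicate block, 316 without replicate 4 of every group, and 282 to 573 with 1 library left out. Some of these fits hold fewer libraries, and the cause of these shifts was not tested. The other planned settings moved each count by less than 1.5 times, and no named gene that was called changed sign in any setting. Of the 124 named genes, 123 could be fitted with the block over 16 libraries (Tpsb2 did not pass the filter there). Among those 123 it ended no call and added 3 against the empty vector, 13 against wild-type GATA2 and 15 against T354M. The 3 were Spi1 and Ngp (adjusted p = 0.0151 and 0.0034) and Il17rb. Il17rb passed the filter on low counts through other groups, so its p is left out. Over the 8 libraries the block added 31 of 121 and 22 of 118 in the last 2 comparisons. Against the empty vector limma ended the calls of 12 of the 124. The 8 libraries alone ended 3, 8 and 12 calls of named genes in the 3 comparisons. The 8 calls against wild-type GATA2 include Tpsg1 and Gnai1, given above with no test. At 4 libraries a group and these depths, genes with a few counts in 1 group have wide counting intervals.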
